A study of Mus musculus with 10 samples.

Results

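Malat1, Neat1, Meg3, Rian, Mirg, Snhg11, Miat and Rmst are 8 long noncoding RNAs that poly(A)-primed single-cell libraries of mouse brain capture in quantity or in a restricted set of cells. They were taken by gene symbol from the gene lists of the deposited matrices. All 8 were among the 32285 genes listed for replicates 4 and 5 of both ranks, and 7 of them were among the 31053 genes listed for replicates 1 to 3, where Rian was not listed. The study profiled dissociated cells of the medial prefrontal cortex with droplet single-cell RNA-seq (10x Genomics, in which each captured molecule is counted once by its molecular identifier, or UMI). One group was socially dominant mice (rank 1) and the other was subordinate mice (rank 4), ranked in the tube test, a contest in which 1 of 2 mice backs out of a narrow tube. Each rank had 5 libraries, and each library pooled tissue of 2 to 3 mice, so p-values here measure the spread between pools. All mice were C57BL/6N males over 2 months old with no genetic or drug treatment named in the labels, and the cortex was sampled by tissue punches on day 1 after the final tube test and digested with papain at 37 °C for 60 min.

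Long noncoding RNAs of this kind are transcribed and mostly spliced like messenger RNAs but act as RNA, and most of them are concentrated in the nucleus. Malat1 is a component of nuclear speckles, bodies rich in splicing factors, and Neat1 is the scaffold around which paraspeckles assemble. Meg3, Rian and Mirg lie one after another in the imprinted Dlk1-Dio3 domain, are transcribed from the maternal chromosome, and enclose clusters of small nucleolar RNAs and microRNAs. Snhg11 is a small nucleolar RNA host gene, Miat (also called Gomafu) is a nuclear RNA of neurons that binds splicing factors, and Rmst is an RNA that binds the stem cell factor Sox2.

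The positions are those of the GENCODE annotation on GRCm38, the assembly named mm10 in the submitters' processing notes. Malat1 (ENSMUSG00000092341) is a single exon of 6983 bases on the minus strand at chr19:5795690-5802672. Neat1 (ENSMUSG00000092274) is a single exon of 20771 bases on the same strand at chr19:5824708-5845478, 22035 bases from Malat1. Meg3 (ENSMUSG00000021268) lies on the plus strand at chr12:109541001-109571726, with 5 exons in its longest transcript of 14548 bases. Rian (ENSMUSG00000097451) follows 32213 bases downstream at chr12:109603940-109661716 and Mirg (ENSMUSG00000097391) another 68047 bases downstream at chr12:109729764-109749460, both on the plus strand. Snhg11 (ENSMUSG00000044349) lies on the plus strand at chr2:158375638-158386145 and carries the annotation type protein coding. Miat (ENSMUSG00000097767) lies on the minus strand at chr5:112213228-112229395, and Rmst (ENSMUSG00000112117) on the minus strand at chr10:92071037-92165170. The span of Rian held 13 annotated small nucleolar RNA genes and 4 microRNA genes, that of Mirg 15 microRNA genes, and that of Snhg11 2 small nucleolar RNA genes.

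The microRNAs inside 4 of the spans are shown because they are the processed products of the regions whose host transcripts are counted here. The UMI counts measure the long hosts and not the microRNAs. In RefSeq (GRCm38.p6), 3 mature microRNAs fell inside Meg3, 6 inside Rian, 26 inside Mirg and 4 inside Rmst. Selected mature sequences are given 5′ to 3′ with the seed, bases 2 to 8, in capitals.
miR-770-5p (Meg3): aGCACCACgugucugggccacg
miR-341-3p (Rian): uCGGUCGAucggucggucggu
miR-370-3p (Rian): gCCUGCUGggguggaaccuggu
miR-382-5p (Mirg): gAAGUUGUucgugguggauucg
miR-134-5p (Mirg): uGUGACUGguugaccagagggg
miR-485-3p (Mirg): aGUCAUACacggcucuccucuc
miR-410-3p (Mirg): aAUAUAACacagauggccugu
miR-453 (Mirg): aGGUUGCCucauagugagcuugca
miR-496a-5p (Mirg): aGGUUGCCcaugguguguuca
miR-135a-5p (Rmst): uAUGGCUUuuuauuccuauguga
The 26 mature sequences in Mirg carried 25 different seeds. The shared one was GGUUGCC, in miR-453 and miR-496a-5p. miR-134-5p lay at chr12:109734145-109734166, near the 5′ end of Mirg, and miR-410-3p at chr12:109743764-109743784.

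The Meg3 promoter is shown because Meg3, Rian and Mirg had the same class pattern in the counts described below. RefSeq (GRCm38.p6) promoter windows, which run from 250 bases before to 50 bases after the annotated start, were available for 6 of the 8 genes. The first Meg3 window, chr12:109540746-109541045 on the plus strand, is printed with its motif matches in capitals.
Meg3 promoter: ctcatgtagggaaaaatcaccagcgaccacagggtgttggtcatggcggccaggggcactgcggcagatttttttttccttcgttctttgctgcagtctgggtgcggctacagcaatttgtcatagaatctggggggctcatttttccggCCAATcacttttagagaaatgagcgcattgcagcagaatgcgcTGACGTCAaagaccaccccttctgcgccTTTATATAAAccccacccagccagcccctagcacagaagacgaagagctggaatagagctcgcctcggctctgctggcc
Both strands were searched for TGACGTCA (the cyclic AMP response element), TATAAA and CCAAT. In this window TGACGTCA began at base -57 from the start, CCAAT at base -100, and TATAAA at base -25 on the sense strand and at base -29 on the other strand, the matches overlapping. TGACGTCA was present in 1.79%, TATAAA in 13.6% and CCAAT in 37.4% of 32851 RefSeq promoter windows of the same length. The Mirg window held CCAAT at base -184, and its RefSeq start lay inside the GENCODE gene, downstream of its first base. The windows of Malat1, Rian, Snhg11 and Miat and the second Meg3 window held none of these letters.

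Stretches of A inside a transcript are shown because the libraries were primed on poly(A). The longest annotated transcript of Malat1 held 1 run of at least 10 A, of 12 bases and 298 bases from its 3′ end. Meg3 held 6 such runs, the longest of 16 bases and 14113 bases from the 3′ end, and Rian held 1 of 15 bases. The runs are in capitals with 12 bases on either side.
Malat1: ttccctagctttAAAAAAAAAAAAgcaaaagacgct
Meg3: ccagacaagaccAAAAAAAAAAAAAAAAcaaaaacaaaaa
Rian: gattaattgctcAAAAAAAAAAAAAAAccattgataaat
No run of this length was present in the longest transcript of Neat1, Miat, Snhg11, Rmst or Mirg, and 9.72% of the longest transcripts of 55450 genes held at least 1. Per 1000 bases there were 0.143 runs in Malat1, 0.412 in Meg3 and 0.124 in Rian, beside 0.0637 over all longest transcripts. Among annotated transcripts, 1 of 4 for Malat1, 1 of 11 for Meg3 and 2 of 20 for Rian held such a run. The counts do not show at which A stretch a molecule was primed, so levels of different genes are not ranked against each other, and a ratio of UMIs of 2 genes is compared only between cells and libraries.

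The libraries held 1838 to 15826 barcodes and 4442750 to 29278466 UMIs each, with a median of 1238 to 2250 UMIs per barcode. The median mitochondrial share of UMIs was 3.50% to 15.2%. Rank 4 replicate 1 stood apart, with 51.4% of its barcodes above 15% mitochondrial UMIs and 116 barcodes at or below 5%. Any pair of libraries shared at most 104 barcode sequences, 1.70% of the smaller library. Of 64937 barcodes, 44852 cells were kept after filters on genes, mitochondrial share and doublets. They were clustered without the 8 RNAs and without mitochondrial genes, and clusters were named from marker genes. The classes were like excitatory neurons (16414 cells), astrocytes (8948), endothelial cells (4218), microglia (3477), oligodendrocyte precursors (3211), oligodendrocytes (2325), inhibitory neurons (2204) and pericytes (1626), and "like" is left out of the names from here on. Smooth muscle (425 cells) had at least 20 cells in 5 libraries and committed oligodendrocyte precursors (278 cells) in 7 libraries. UMIs were summed per library and class, and a level is given in CPM, the counts of a gene per 1000000 UMIs of that sum, as mean ± SD over libraries.

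Malat1 was present in every class, with class means over 10 libraries from 29056 CPM in microglia to 98195 CPM in astrocytes. In astrocytes it ranged over the 10 libraries from 79036 to 139534 CPM with a median of 92473 CPM (98195 ± 19757, SD, n = 10). In oligodendrocytes it ranged from 66459 to 132842 CPM with a median of 82602.5 CPM (89950.5 ± 24878, SD, n = 10). In excitatory neurons it ranged from 39427 to 103110.0 CPM with a median of 47113 CPM (54956 ± 19465, SD, n = 10). The excitatory range overlapped that of astrocytes through 1 library, rank 1 replicate 1. Inhibitory neurons had 58300.5 ± 24993 CPM and pericytes 68821 ± 9878 CPM (SD, n = 10 each). The lowest levels were in endothelial cells (36327 ± 7695 CPM, SD, n = 10) and microglia (29056 ± 7705 CPM, SD, n = 10), where the highest library reached 43807 CPM. In the same libraries the astrocyte level of Malat1 was 187% of the excitatory level (range 135% to 244%), and the microglial level was 56.1% (range 29.98% to 82.2%). Within the order of class means no pair of neighbouring classes differed for Malat1 (9 pairs, exact sign-flip test over libraries, adjusted over all 70 neighbouring pairs of the 8 RNAs, smallest adjusted p = 0.114).

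Neat1 was a vessel and glia RNA in these libraries and was close to absent from neurons. In endothelial cells it ranged from 228 to 1428 CPM with a median of 822 CPM (777 ± 434, SD, n = 10). In smooth muscle it ranged from 433 to 1239 CPM (873 ± 347, SD, n = 5). Oligodendrocytes had 218 to 901 CPM with a median of 374 CPM (403 ± 193, SD, n = 10) and astrocytes 100.4 to 303 CPM with a median of 161 CPM (189.6 ± 68.2, SD, n = 10). These ranges lay above every neuron library: excitatory neurons had 5.59 to 23.2 CPM (12.9 ± 5.12, SD, n = 10) and inhibitory neurons 0 to 12.5 CPM (5.28 ± 4.13, SD, n = 10). Oligodendrocyte precursors were as low as neurons, at 13.3 ± 4.96 CPM (SD, n = 10), beside mature oligodendrocytes of the same lineage that held Neat1 in every library. Oligodendrocytes exceeded astrocytes by a mean log2 of 1.05 in 10 of 10 libraries (exact sign-flip test, adjusted p = 0.0195). Excitatory exceeded inhibitory neurons by 1.50 in 9 of 10 libraries (exact, adjusted p = 0.0273), from at most 12 UMIs per inhibitory sum. Read against markers of other cells, Neat1 in inhibitory neurons was 1.41% of its oligodendrocyte level where the oligodendrocyte markers were 1.69% of theirs, and 1.27% of its endothelial level where the endothelial markers were 0.529%. In single libraries it lay below these markers in 8 and 5 of 10 libraries. For astrocytes this was 5 of 10 libraries, and for oligodendrocyte precursors, microglia and pericytes 2 of 10 each. Neat1 is not read as expression in inhibitory neurons. In excitatory neurons it was 3.34% of its oligodendrocyte level beside 1.71% for the markers, below them in 1 of 10 libraries. Against each other class it was below in 0 of 10, with 2.84% beside 0.389% for endothelial cells and 7.20% beside 1.72% for astrocytes. As the inhibitory level is not read, the gap between the neuron classes is not read as a difference in expression. Endothelial cells and oligodendrocytes did not pass (log2 0.80, 7 of 10 libraries, adjusted p = 0.258).

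Meg3 was high in both neuron classes. In inhibitory neurons it ranged from 9089 to 31849 CPM with a median of 11707 CPM (13909 ± 6930.5, SD, n = 10). In excitatory neurons it ranged from 6844 to 20692 CPM with a median of 9453 CPM (10487 ± 4147, SD, n = 10). Pericytes came next at 521 to 2462 CPM with a median of 951 CPM (1145 ± 636, SD, n = 10), so no pericyte library reached a neuron library. Astrocytes had the lowest mean, 448 ± 348 CPM (SD, n = 10), from 90.9 to 1096 CPM. Within libraries, inhibitory exceeded excitatory neurons by a mean log2 of 0.37 (SD 0.19) in 10 of 10 libraries, and excitatory neurons exceeded pericytes by 3.30 (SD 0.76) in 10 of 10 (exact sign-flip tests, adjusted p = 0.0195 each). The first of these calls did not hold without 2 mixed neuron clusters described below (log2 0.29, exact adjusted p = 0.0820, chosen after seeing the data). The remaining neighbours in the order, from pericytes and oligodendrocyte precursors down to astrocytes, were not told apart (adjusted p from 0.238 to 1).

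Rian, the gene downstream of Meg3, could be read in 4 libraries. In inhibitory neurons it ranged from 664 to 862 CPM (766 ± 93.6, SD, n = 4) and in excitatory neurons from 525 to 656 CPM (612 ± 61.7, SD, n = 4). Its ranges in glia and vessel cells ended below these, at 252 CPM in the highest pericyte library and at 121 CPM in the highest astrocyte library. Mirg, the third gene of the row, ranged in inhibitory neurons from 40.2 to 127 CPM with a median of 105 CPM (94.5 ± 30.3, SD, n = 10). In excitatory neurons it ranged from 39.4 to 79.3 CPM with a median of 64.4 CPM (61.1 ± 16.0, SD, n = 10). Every glia or vessel class had a mean of 4.46 to 10.3 CPM for Mirg, from at most 26 UMIs per library and class. Inhibitory exceeded excitatory neurons for Mirg by a mean log2 of 0.58 in 9 of 10 libraries (exact, adjusted p = 0.0273), and by 0.51 without the same 2 clusters (exact, adjusted p = 0.0342). For Rian the same difference was 0.32 in 4 of 4 libraries, where 4 libraries cannot give an exact p below 0.125.

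The proportions of the 3 neighbouring genes were compared within libraries. For every 100 Meg3 UMIs there were 6.42 to 6.98 Rian UMIs in excitatory neurons (6.64 ± 0.237, SD, n = 4) and 6.51 to 7.30 in inhibitory neurons (6.98 ± 0.346, SD, n = 4). These ranges overlapped. In the glia and vessel classes with at least 3 libraries the ratio had means of 9.41 to 11.1, above both neuron ranges, while single libraries went down to 5.63, from at most 278 Rian UMIs per sum. Mirg stood at 11.5 ± 0.452 UMIs per 100 Rian UMIs in excitatory neurons and at 14.7 ± 1.38 in inhibitory neurons (SD, n = 4 each), and these ranges, 11.1 to 12.1 and 12.9 to 15.9, did not overlap. Over all 10 libraries Mirg varied more against Meg3, from 0.366 to 0.780 UMIs per 100 Meg3 UMIs in excitatory neurons (0.612 ± 0.144) and from 0.400 to 1.14 in inhibitory neurons (0.737 ± 0.271, SD, n = 10 each), ranges that overlapped. These libraries hold both gene lists. Over all barcodes Mirg stood at 16.9 to 49.2 CPM in the libraries of replicates 1 to 3. In replicates 4 and 5 it stood at 50.9 to 61.7 CPM, and gene list and replicate number cannot be told apart. The ratio of Meg3 to Malat1 was 18.98 ± 2.20 Meg3 UMIs per 100 Malat1 UMIs in excitatory neurons and 23.6 ± 3.28 in inhibitory neurons (SD, n = 10 each). Rank 1 replicate 1 had the highest neuron level of both genes.

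Snhg11 followed the same pattern with a larger gap between the neuron classes. In inhibitory neurons it ranged from 3054 to 9728 CPM with a median of 5619 CPM (5376 ± 2134, SD, n = 10). In excitatory neurons it ranged from 1535 to 4928 CPM with a median of 3538 CPM (3096 ± 1161, SD, n = 10). Although the ranges overlapped between libraries, inhibitory exceeded excitatory neurons within each of the 10 libraries, by a mean log2 of 0.80 (SD 0.14; exact sign-flip test, adjusted p = 0.0195). Glia and vessel means lay between 185 CPM in astrocytes and 383 CPM in oligodendrocyte precursors. Over all barcodes Snhg11 stood at 702 to 2361 CPM in the libraries of replicates 1 to 3. In replicates 4 and 5 it stood at 2644 to 3393 CPM, and gene list and replicate number cannot be told apart. In excitatory neurons the levels of these sets of replicates overlapped through rank 1 replicate 1.

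Miat had the opposite order of the neuron classes. In excitatory neurons it ranged from 168 to 316 CPM with a median of 219.7 CPM (223 ± 41.4, SD, n = 10). In inhibitory neurons it ranged from 63.3 to 164 CPM with a median of 83.9 CPM (94.0 ± 32.6, SD, n = 10). The highest inhibitory library fell just below the lowest excitatory one, and the difference within libraries was a mean log2 of 1.28 (SD 0.37) in 10 of 10 libraries (exact sign-flip test, adjusted p = 0.0195). Oligodendrocyte precursors had 21.4 to 85.8 CPM with a median of 52.1 CPM (48.0 ± 20.9, SD, n = 10), below inhibitory neurons by 1.02 in 9 of 10 libraries (exact, adjusted p = 0.0273). The other glia and vessel classes with 10 libraries had means of 11.5 to 25.1 CPM.

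Rmst was an astrocyte RNA. It ranged there from 127 to 278 CPM with a median of 172 CPM (183 ± 44.4, SD, n = 10). In excitatory neurons it ranged from 18.2 to 44.98 CPM with a median of 36.1 CPM (33.1 ± 9.07, SD, n = 10). These ranges did not overlap, and astrocytes were above excitatory neurons by a mean log2 of 2.45 (SD 0.57) in 10 of 10 libraries (exact sign-flip test, adjusted p = 0.0195). All other classes had means of 3.24 to 9.05 CPM, from 0 to 12 UMIs per sum. The excitatory level differed between the gene lists: it was 35.5 to 44.98 CPM in replicates 1 to 3 and 18.2 to 31.0 CPM in replicates 4 and 5. The gene list goes with the replicate number, so these cannot be told apart.

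**Figure D1:**
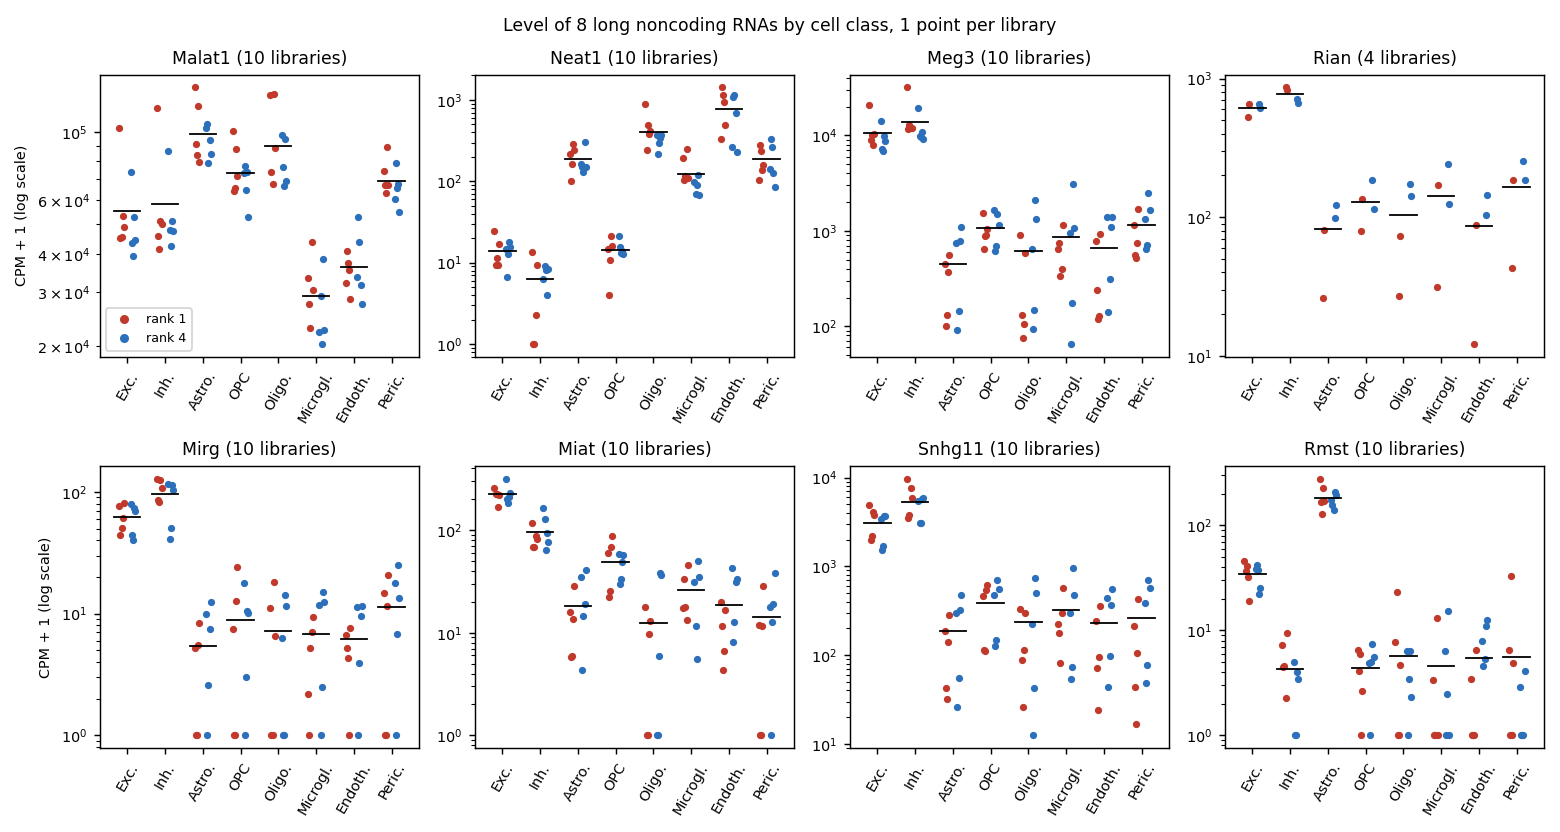
Level of each of the 8 RNAs (CPM + 1, log axis) by cell class, with 1 point per library coloured by rank and a black line at the mean. Meg3, Rian, Mirg and Snhg11 stand highest in the 2 neuron classes, Miat in excitatory neurons, Rmst in astrocytes and Neat1 in endothelial cells among the 8 classes shown, while Malat1 is high in all of them.

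The mean of the neuron classes was then set against the mean of the glia and vessel classes within each library. Each class with at least 20 cells in a library entered its mean. These were 6 classes in every library, with committed oligodendrocyte precursors in 7 libraries and smooth muscle in 5. Meg3 (mean log2 4.15, SD 0.94), Snhg11 (4.35, SD 1.00), Mirg (3.59, SD 0.76) and Miat (2.91, SD 0.91) were higher in neurons in 10 of 10 libraries. Their mean levels were 15.4, 15.2, 11.2 and 6.67 times those of glia and vessels. Neat1 was lower in neurons in 10 of 10 libraries (log2 -4.90, SD 1.09), 33.0 times lower in mean CPM. Rmst was lower in neurons in 9 of 10 libraries (log2 -0.67, SD 0.52, adjusted p = 0.00626), with astrocytes among the classes on the other side. The first 5 of these had an adjusted p of 0.00343 (exact sign-flip test over libraries, adjusted over 10576 genes). With Malat1, 7 members passed, 4 higher and 3 lower in neurons, beside 43.1% of all genes tested that were called higher and 32.8% that were called lower. Malat1 was lower in neurons in 8 of 10 libraries by a mean log2 of -0.31 (SD 0.34, exact adjusted p = 0.0345), and this call did not hold when any of 7 single libraries was left out. Rian was higher in neurons in 4 of 4 libraries (log2 2.76, SD 1.04, exact p = 0.125, the smallest 4 libraries allow).

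The levels in glia and vessels were read against genes that those cells should lack. The 5 markers of excitatory neurons (Slc17a7, Neurod6, Neurod2, Tbr1 and Nrn1), summed, reached 16.96% of their excitatory-neuron level in astrocytes of the same library (range 9.13% to 27.5%) and 14.4% in endothelial cells (range 1.72% to 32.7%). Slc17a7 alone, the vesicular glutamate transporter of cortical excitatory neurons, reached 13.8% in astrocytes and 13.7% in endothelial cells. Meg3 reached 4.38% of its excitatory level in astrocytes (range 1.12% to 12.5%) and 6.17% in endothelial cells. Snhg11 reached 5.34% and 6.78%, Mirg 6.34% and 8.01%, and Miat 7.60% in both. In astrocytes all 4 lay below the markers in 10 of 10 libraries. In endothelial cells Meg3, Snhg11 and Miat did so in 10 of 10 libraries and Mirg in 7 of 10. The UMIs of these RNAs are therefore not read as expression in astrocytes or endothelial cells, and their source was not tested.

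In oligodendrocyte precursors Miat was below the markers in 3 of 10 libraries. Miat stood there at 22.0% of its excitatory level (range 9.65% to 39.9%) beside 17.2% for the markers (range 7.74% to 31.1%), ranges that overlapped. Rian stood at 20.6% (range 15.04% to 28.2%, n = 4), beside 22.96% for the markers in the same 4 libraries. In the same cells Meg3 (10.4%, range 7.14% to 15.1%) and Snhg11 (11.4%, range 4.98% to 18.9%) each lay below the markers in 8 of 10 libraries, and the ranges overlapped that of the markers. In pericytes Snhg11 (7.46%) was below the markers (17.6%) in 10 of 10 libraries and is not read as expression there, and Meg3 (11.5%) was below them in 6 of 10. In pericytes Rian stood at 26.1% (range 8.07% to 38.4%, n = 4) and the markers of the same 4 libraries at 27.6% (range 17.5% to 35.01%), ranges that overlapped. Rmst and Neat1 stood far above the markers outside neurons: Rmst in astrocytes at 603% of its excitatory level (range 315% to 969.7%) and Neat1 in endothelial cells at 8039%.

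**Figure D2:**
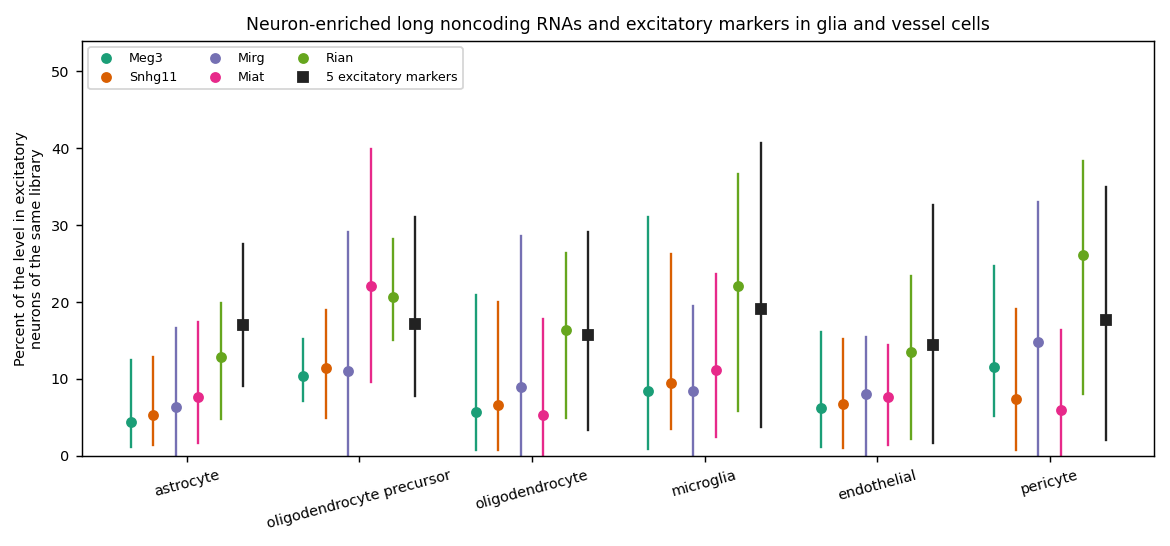
Level in 6 glia and vessel classes as a percentage of the excitatory-neuron level in the same library, for Meg3, Snhg11, Mirg, Miat, Rian and 5 summed markers of excitatory neurons (points are means over libraries, bars the lowest and highest library). Meg3 stands below the markers in all 6 classes, with means of 4.38% against 16.96% in astrocytes and 11.5% against 17.6% in pericytes, and Rian is shown over 4 libraries.

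Counted per cell, with every cell thinned to 1000 UMIs, Meg3 was detected in 98.4% of excitatory neurons (98.2% unthinned) and Snhg11 in 93.6% (96.7% unthinned). In astrocytes the shares were 29.6% and 18.3% (42.1% and 28.2% unthinned), and they are not read as expression there for the reason given above. Median depth was 2344 UMIs in excitatory neurons and 1483 UMIs in astrocytes, and 13.6% and 17.1% of cells were too shallow to thin. Rian was detected in 47.9%, Miat in 22.1% and Mirg in 7.24% of thinned excitatory neurons. Inhibitory neurons had Mirg in 10.6% and Miat in 9.79% of thinned cells. Rmst was detected in 15.3% of thinned astrocytes (25.4% unthinned) and in 0.357% of inhibitory neurons. Neat1 was detected in 46.8% of smooth muscle cells, 32.1% of endothelial cells, 30.9% of oligodendrocytes and 0.561% of inhibitory neurons after thinning. Single astrocytes varied widely in Malat1, from 2.57% of UMIs at the 10th percentile of cells to 9.35% at the median and 16.9% at the 90th percentile. In excitatory neurons these were 2.09%, 4.54% and 9.74%.

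Neurons were divided further, and no test was made between these subclasses. Names such as L2/3 IT (layer 2/3 intratelencephalic), L6 CT (corticothalamic) and L5/6 NP (near-projecting) mean cells like those types. Clusters that did not meet the naming rule go by number with their leading genes. Among named types Meg3 had its highest mean in Pvalb, at 8670 to 40792 CPM with a median of 11604 CPM (16937 ± 11629, SD, n = 7). The highest Pvalb library was rank 1 replicate 1, and the other 6 ended at 23780 CPM. Vip interneurons had 15165.5 ± 7543 CPM (SD, n = 8), a range that overlapped that of Pvalb. Among excitatory cells it was highest in unnamed cluster 7 (Pou3f1, Stxbp6; Fezf2 also led it) at 16827 ± 6996 CPM (SD, n = 10), and L5 IT had 13111 ± 4292, L2/3 IT 12077 ± 3833 and L6 CT 9956 ± 4163 CPM (SD, n = 10, 10 and 8). Rian stood at 964 ± 91.0 CPM in excitatory cluster 7, 879.5 ± 114 CPM in L5 IT and 854 ± 137 CPM in Vip (SD, n = 4 each). Mirg stood at 118 ± 33.6 CPM in Pvalb (SD, n = 7) and 104 ± 20.04 CPM in Vip (SD, n = 8).

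Inhibitory cluster 1 (Adarb2, Vip; 438 cells) and excitatory cluster 9 carried markers of other classes. Inhibitory cluster 1 had higher means than any other subclass for Meg3 (22285 ± 2481 CPM, SD, n = 6), Mirg (155 ± 48.2 CPM, SD, n = 6) and Rian (1087 ± 68.7 CPM, SD, n = 4), and these are not read as the level of a neuron type. Haemoglobin genes and the endothelial gene Cldn5 were among its leading genes. Its microglial markers stood at 414 CPM on average, beside 109.7 to 198 CPM in the other inhibitory subclasses, and its excitatory markers at 639.9 CPM, beside 225 to 276 CPM. Its inhibitory markers were the lowest of these subclasses, at 1922 CPM, and haemoglobin took 0.248% of its UMIs, beside 0.213% in Vip. Their part in its levels was not tested. Cluster 9 of the excitatory class (782 cells), led by the haemoglobin genes Hba-a1 and Hba-a2 and by microglial genes, had 3747 ± 3165 CPM of Meg3 (SD, n = 7) and is not read as a neuron type. Its excitatory markers stood at 928 to 2414 CPM, beside 860 to 1953 CPM in L2/3 IT. Its microglial markers stood at 448 CPM on average, beside 57.1 to 199 CPM in the other excitatory subclasses. Without cluster 9 the Meg3 mean of excitatory neurons was 10628 CPM, and without inhibitory cluster 1 that of inhibitory neurons was 13472 CPM. With both left out, 7 members were called between neurons and other cells.

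Miat varied among the neuron types. L5 IT had 308 to 457 CPM (364 ± 42.6, SD, n = 10), L2/3 IT 210.4 to 429 CPM (292 ± 58.0, SD, n = 10), and L6 CT 156 to 218 CPM (184 ± 23.1, SD, n = 8). L5/6 NP were lower, at 121 ± 36.2 CPM (SD, n = 8). The lowest mean was in Pvalb interneurons, the fast-spiking basket and chandelier type, at 18.9 to 91.9 CPM (45.3 ± 22.6, SD, n = 7), where no library reached the lowest library of L5 IT, L2/3 IT or L6 CT.

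Snhg11 was high in all inhibitory types, with means from 5508 ± 282 CPM in Sst (SD, n = 4) to 6678 ± 2676 CPM in Pvalb (SD, n = 7). Its highest excitatory mean was in L5/6 NP, 5038 ± 1609 CPM (SD, n = 8), beside 3222 ± 959 CPM in L5 IT (SD, n = 10).

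Rmst was uneven among excitatory neurons. L5 IT had 63.3 to 122 CPM (82.3 ± 20.9, SD, n = 10), with Cux2 and Rorb among the leading genes of that cluster. Cluster 12, led by the activity-induced genes Nr4a2 and Btg2, had 68.9 ± 28.9 CPM (SD, n = 9), and cluster 10 (Rorb, Tnnc1) had 53.1 ± 13.3 CPM (SD, n = 5). L2/3 IT had 5.41 to 22.9 CPM (15.2 ± 5.93, SD, n = 10), below every library of L5 IT. Excitatory cluster 7, among the highest in Meg3 and Miat, had 0 to 4.28 CPM (0.736 ± 1.40, SD, n = 10). Neat1 had its highest neuron mean in cluster 12, 29.7 ± 14.5 CPM (SD, n = 9), and no UMI in any of 4 libraries of Lamp5 interneurons. Malat1 means ran from 46894 to 71348 CPM in all but clusters 9 and 13, which had 20409.6 and 26799.9 CPM.

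**Figure D3:**
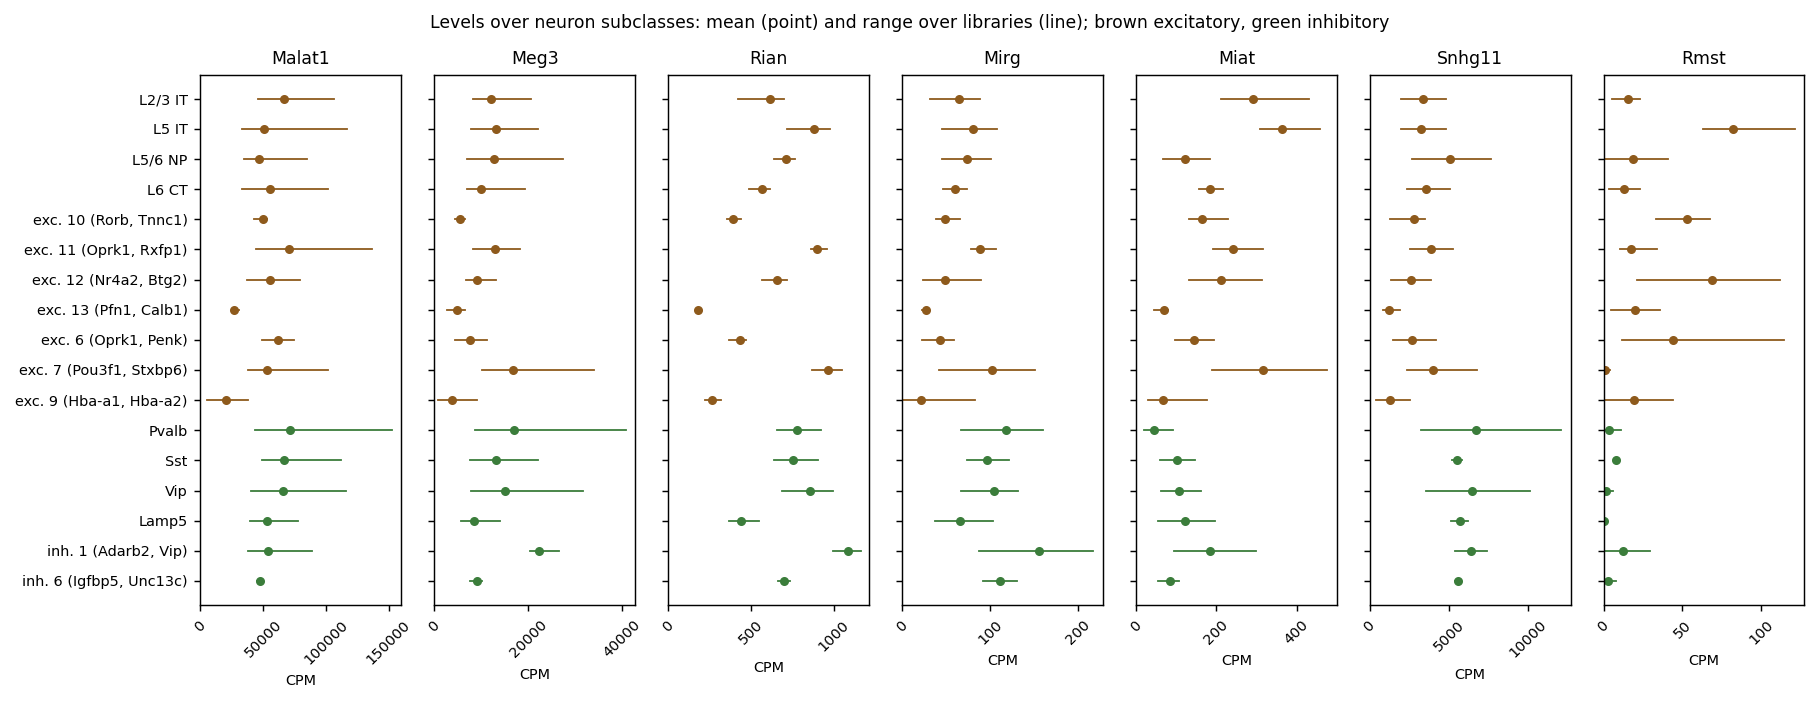
Level (CPM) of 7 of the RNAs in neuron subclasses, excitatory in brown and inhibitory in green, with points at the mean and bars from the lowest to the highest library. Miat is highest in L5 IT at 364 CPM and lowest in Pvalb at 45.3 CPM, while Rmst falls from 82.3 CPM in L5 IT to 0.736 CPM in excitatory cluster 7.

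The genes most like each RNA over the class sums were found by Pearson correlation of log2(CPM + 1) over 92 sums of library and class, among 10582 genes. These points share libraries, depth and background RNA, so r is a description. Snhg11 was most like Ttc3 (r = 0.939), Thy1 (0.930) and Syn2 (0.926), all genes high in neurons. Meg3 was most like Tmem191c (0.912), Celf4 (0.896) and Ndrg4 (0.894). Among the genes most like Miat were B230334C09Rik (0.858) and Grm5 (0.844), a metabotropic glutamate receptor. Mirg was most like Slc12a5 (0.866), the neuronal chloride exporter, Nyap2 (0.862) and Slc35f4 (0.854). Rian, over 36 sums, was most like Kif5a (0.954), Grin1 (0.953) and Scn2a (0.952). Rmst was most like the astrocyte genes Aldh1l1 (0.730) and Slc1a2 (0.706) and the factor Lhx2 (0.723). Neat1 was most like Clic4 (0.834), Ctnna1 (0.818) and Plin3 (0.790). Malat1 had the weakest likeness: Rgma (0.726), Slc20a2 (0.657) and Sqle (0.653). Between members, r was 0.944 for Meg3 and Snhg11, 0.975 for Meg3 and Rian, 0.842 for Meg3 and Mirg, and -0.64 for Meg3 and Neat1.

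Mitochondrial share was examined over all deposited barcodes. Nuclear RNAs are often read beside mitochondrial share, since a barcode that lost cytoplasm or holds bare nuclei differs in both. Levels were taken as CPM of the non-mitochondrial UMIs. Barcodes above 15% were set against barcodes at or below 5% in each library. Miat was 2.11 higher on the log2 scale in the high group (SD 0.80, range 1.08 to 3.29), Mirg 1.97 (SD 0.49), Meg3 1.74 (SD 0.64) and Snhg11 1.20 (SD 0.75), each in 10 of 10 libraries. Malat1 was lower in the high group in 10 of 10 libraries, by a mean log2 of -0.53 (SD 0.34, range -1.27 to -0.12). These 5 had an adjusted p of 0.00780 (exact sign-flip test over 10 libraries, adjusted over 10578 genes). Neat1 was lower in 9 of 10 libraries (log2 -1.05, SD 0.71, exact adjusted p = 0.0114). Among barcodes of 1000 to 3000 UMIs the call of Snhg11 was lost (1.62, exact adjusted p = 0.0861). Rmst was lower in 8 of 10 libraries and did not pass (log2 -0.56, SD 0.80, exact adjusted p = 0.0892). Rian was higher in 4 of 4 libraries (log2 1.40, SD 0.46, exact p = 0.125). In all, 4 members were called higher and 2 lower, beside 30.9% of all genes called higher and 22.7% called lower.

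The profile over bins of mitochondrial share was not a straight line for Malat1. Its mean level was 57834 in barcodes up to 2.5%, 60433 from 2.5% to 5%, 64337 from 5% to 10% and 63469.5 from 10% to 15%, on the same scale. It was 42907 from 15% to 30% and 27366 above 30%, the last from 5 libraries. The library ranges of neighbouring bins overlapped throughout, also across 15%, where they were 34639 to 101263 below and 28271 to 58183 above. Meg3 had its lowest mean, 4227 (SD 1465, n = 10), between 2.5% and 5%, and its highest, 14949 (SD 4768, n = 10), between 15% and 30%. Miat went from 80.8 to 384 between the same bins, and Mirg from 27.1 to 105. With groups cut at above 10% and at most 2.5%, Malat1 stood at log2 0.52 and Neat1 at 0.041, neither past the threshold. Restricted to libraries with at least 20 barcodes on each side, they stood at -0.094 and -0.085, again not past it.

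The cells behind the groups also changed. The 5 excitatory-neuron markers, summed, stood at 1096 to 2490.4 in the high group and at 453 to 1526 in the low group on that scale, higher in 10 of 10 libraries (mean log2 1.24). Endothelial markers were 75.4 to 382 in the high and 976 to 2439 in the low group (mean log2 -2.84), and astrocyte markers were lower in 9 of 10 libraries (mean log2 -1.93). The 5 erythroid markers stood at 273 to 5342 in the high and 7472 to 232155 in the low group, lower in 10 of 10 libraries. The part of this composition in the relation was not tested over all barcodes. Within kept excitatory neurons, where cells above 7.5% were set against cells at or below 3%, no member passed beside 25.8% of genes called. There Malat1 stood at log2 0.36 (5 of 9 libraries lower, exact adjusted p = 0.228), Meg3 at 0.39 and Miat at 0.62 (exact adjusted p = 0.290 and 0.188). Within astrocytes Malat1 was lower in 6 of 6 libraries (log2 -0.43) and Meg3 and Snhg11 higher in 6 of 6 (1.42 and 1.36), each with exact p = 0.0313, the smallest 6 libraries allow, and adjusted p = 0.387. In the same astrocyte groups the excitatory-neuron markers were higher in 6 of 6 libraries (mean 607 against 390 CPM), the oligodendrocyte markers were higher in 6 of 6 (703 against 358 CPM) and the astrocyte markers were lower in 5 of 6 (8887 against 11179.5 CPM). Their part in the astrocyte values was not tested. No gene passed in astrocytes by this exact test, with 805 of 9964 genes at an unadjusted p under 0.05.

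**Figure D4:**
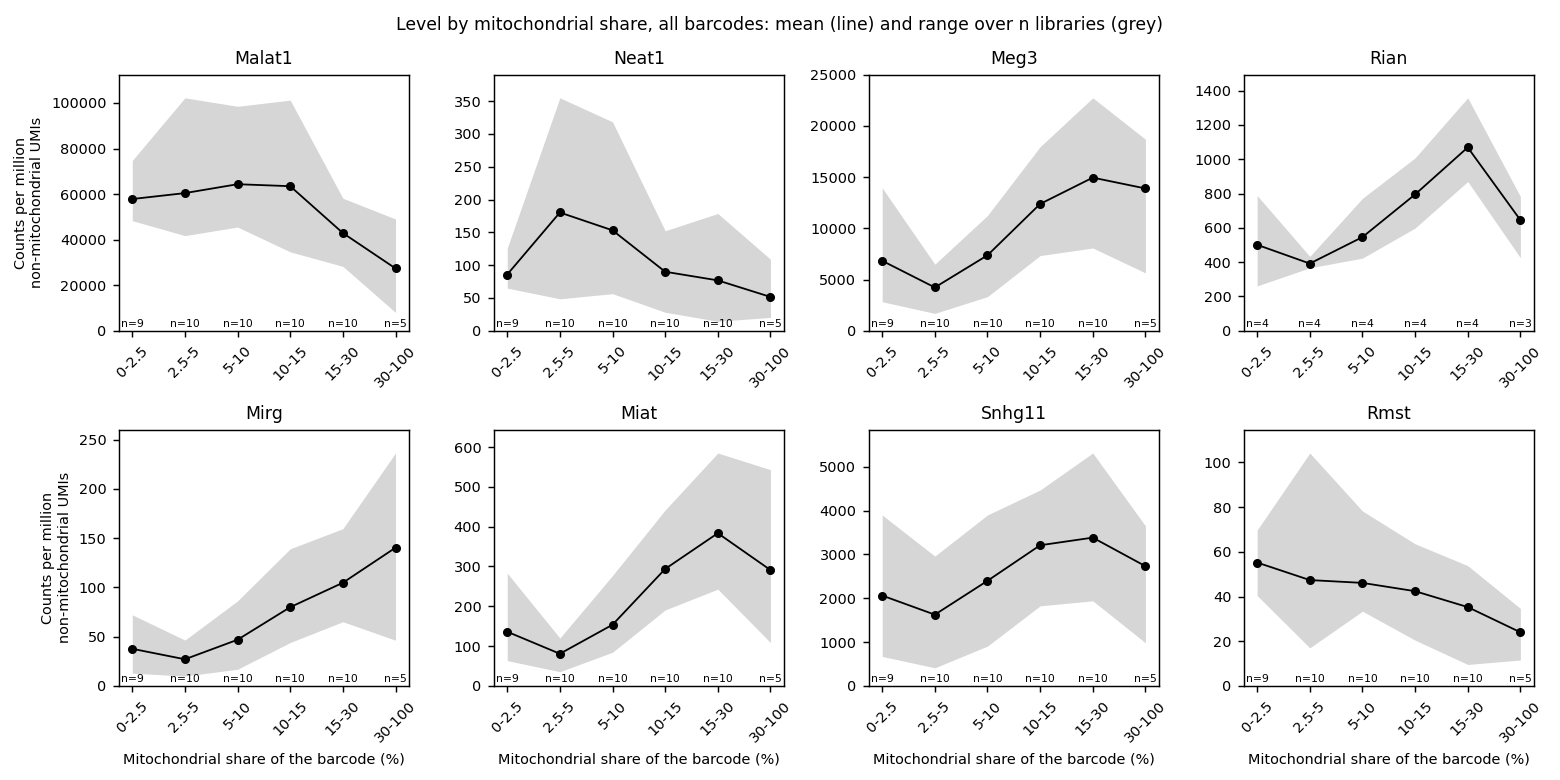
Level of each RNA (CPM of non-mitochondrial UMIs) in 6 bins of mitochondrial share over all barcodes, with the mean over libraries as a line, the lowest and highest library in grey and the number of libraries at each bin. Malat1 falls from 63469.5 to 27366 between the bin at 10% to 15% and that above 30%, and Meg3 rises from 4227 to 14949 between the bins at 2.5% to 5% and 15% to 30%.

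The relation to mitochondrial share was compared between ranks. For the 7 members with 5 libraries per rank, the difference of the mean log2 ratios, rank 1 minus rank 4, ran from -0.32 for Snhg11 (1.04 against 1.36) to 0.08 for Rmst. Exact permutation tests of 5 against 5 libraries gave p from 0.444 to 0.921, and adjusted p of 1 over all genes. None of 10578 genes was called (0% called), with 304 at an unadjusted p under 0.05. Without rank 4 replicate 1, which held most of the high barcodes, the relations over all libraries were -0.56 for Malat1, 1.86 for Meg3 and -1.21 for Neat1, and Rmst then passed (log2 -0.72, exact adjusted p = 0.0241).

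The comparison of rank 1 with rank 4 asked which genes differ between dominant and subordinate mice in each class. No member passed in any of 49 tests of member and class (edgeR quasi-likelihood test with the gene list as covariate, Benjamini-Hochberg adjustment over all genes of a class). Rian came from separate fits of replicates 4 and 5, the libraries that list it. In the fits of all libraries no gene passed either (0% of 67155 gene and class tests called, 1564 at an unadjusted p under 0.05, and 0 members called by DESeq2). In the fits that hold Rian, 0.0128% of gene tests were called over all classes, 0.0265% in astrocytes and 0% in endothelial cells. In neuron subclasses 0 of 72 member tests passed, beside 0.00421% of 71218 tests. For Malat1 the log2 fold changes of rank 1 over rank 4 ran from -0.11 to 0.30 over 8 classes. The smallest unadjusted p of each other member was in oligodendrocytes for Rian (-1.26, SE 0.35, 2 against 2 libraries), microglia for Neat1 (0.77, SE 0.29), endothelial cells for Miat (-1.10, SE 0.43), pericytes for Snhg11 (-0.99, SE 0.55) and Meg3 (-0.48, SE 0.33), and astrocytes for Mirg (-0.70, SE 0.60) and Rmst (0.16, SE 0.21). Their edgeR adjusted p values were 0.734 for Rian and at least 0.9998 for the rest. Among subclasses the smallest unadjusted p was in Pvalb for Meg3 (0.77, SE 0.34), Snhg11 (0.72, SE 0.32), Malat1 (0.54, SE 0.38) and Rian (0.40, SE 0.16). It was in unnamed inhibitory cluster 1 for Miat (-0.69, SE 0.33) and Mirg (-0.62, SE 0.34), in cluster 12 for Neat1 (-0.54, SE 0.44) and in L5 IT for Rmst (0.39, SE 0.21). All had an edgeR adjusted p of at least 0.591. The Pvalb values of Meg3, Snhg11 and Malat1 rested on 3 against 4 libraries. In a fit of 3 against 3 with the replicate number as a block they were 0.52, 0.46 and 0.28.

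Libraries with the same replicate number deviated together, although for replicate 3 the closest library of the other rank had another number. The fit with the replicate number as a block gave other calls in 2 non-neuronal classes. Values below are in the order of replicates 1 to 5. The astrocyte Meg3 level was 445, 100.4, 130.4, 371 and 561 CPM among rank 1 libraries, against 753, 90.9, 145, 786 and 1096 CPM among rank 4 libraries. The ranks overlapped, and rank 1 was the lower of the pair in 4 of 5 pairs, pair 2 being the exception. The log2 fold change with the block was -0.69 (SE 0.14, edgeR adjusted p = 0.00834), against -0.74 (SE 0.50) without it. Over the 28 alternative settings, the block among them, it ran from -1.27 to -0.037. Snhg11 in astrocytes stood at 185, 41.4, 31.3, 141 and 281 CPM in rank 1, against 299, 24.8, 54.2, 324 and 471 CPM in rank 4. It was again lower in 4 of 5 pairs, at -0.76 with the block (SE 0.15, edgeR adjusted p = 0.00771). Over the alternative settings it ran from -1.33 to 0.052. It was above 0 without rank 4 replicate 1 and with at most 5% mitochondrial UMIs. Miat in astrocytes, with 14.8, 4.78, 4.95, 12.5 and 27.6 CPM in rank 1 and 34.2, 3.30, 13.4, 17.9 and 39.8 CPM in rank 4, was at -0.84 (SE 0.22, edgeR adjusted p = 0.0388). Over the alternative settings Miat ran from -1.05 to -0.072. Rian, with 25.0 and 79.7 CPM against 97.5 and 121 CPM in the 2 pairs that list it, was at -1.09 (SE 0.25, edgeR adjusted p = 0.0462).

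Endothelial cells had the same members lower in rank 1. Their Meg3 level was 776, 237, 119, 126 and 927 CPM in rank 1, against 1394, 140.1, 310.4, 1099 and 1411 CPM in rank 4. Every pair but pair 2 was lower in rank 1, and the block fit gave -1.03 (SE 0.21, edgeR adjusted p = 0.0160). When single pairs were left out, this ran from -1.31 to -0.63. Snhg11, with 243, 71.4, 23.1, 95.3 and 354 CPM against 437, 43.1, 97.6, 362 and 559.9 CPM, was at -0.93 (SE 0.18, edgeR adjusted p = 0.00683). Miat was at -1.17 (SE 0.28, edgeR adjusted p = 0.0406) and Rian at -1.17 (SE 0.27, 2 pairs, edgeR adjusted p = 0.00526). Altogether 8 of 49 member tests passed with the block, all lower in rank 1. Over all classes 0.315% of gene tests passed. In astrocytes 1.22% of genes were called, with 1.06% lower in rank 1, and in endothelial cells 0.561% were called, with 0.413% lower. In the fits of replicates 4 and 5, which gave both Rian calls, 0.0618% of genes were called in astrocytes and 1.07% in endothelial cells.

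In these classes Meg3, Snhg11 and Miat stood below the excitatory-neuron markers as a percentage of the neuron level. Rian stood at 12.9% in astrocytes and 13.6% in endothelial cells (n = 4), beside 21.9% and 21.5% for the markers in the same 4 libraries. The 5 excitatory-neuron markers, summed, were lower in rank 1 in 5 of 5 pairs of astrocytes, at 129 to 549 CPM against 132 to 655 CPM (mean log2 -0.48). In endothelial cells they were lower in 4 of 5 pairs, at 26.4 to 549.8 CPM against 57.5 to 777 CPM (mean log2 -0.93). No marker was at 0 in every library. With the block 1 of the 5 was called lower in each class, Slc17a7 at -0.84 (edgeR adjusted p = 0.00540) and -0.86 (edgeR adjusted p = 0.0195). The part of neuron RNA in these rank differences was not tested. Without pair 1 the 6 calls of Meg3, Snhg11 and Miat no longer passed: edgeR adjusted p was 0.0844, 0.0654 and 0.447 in astrocytes (log2 -0.65, -0.74 and -0.59) and 0.0837, 0.0543 and 0.266 in endothelial cells (log2 -1.08, -0.96 and -1.15). Calls were also lost for Snhg11 in astrocytes without pair 3 (-0.71, edgeR adjusted p = 0.0742) and for Meg3 in endothelial cells without pair 5 (-1.20, edgeR adjusted p = 0.0537). Miat passed only without pair 4 in astrocytes, and only without pair 2 or pair 3 in endothelial cells, in the 5 fits that each left out 1 pair. Its edgeR adjusted p ranged over these fits from 0.0362 to 0.447 in astrocytes and from 0.0237 to 0.266 in endothelial cells, with log2 fold changes of -0.99 to -0.59 and of -1.29 to -1.07.

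In neurons, where the same RNAs are high, no member passed with or without the block. The Meg3 level of excitatory neurons was 20692, 8938, 10148, 7953 and 10226 CPM in rank 1, against 14203, 7118, 6844, 9968 and 8776 CPM in rank 4, higher in rank 1 in 4 of 5 pairs. The log2 fold change with the block was 0.28 (edgeR adjusted p = 0.382). Without the block it was 0.27, and -0.025 without rank 1 replicate 1. Snhg11 there had 4928, 1973, 2187, 4082 and 3826 CPM in rank 1, against 3412, 1535, 1682, 3665 and 3668 CPM in rank 4. All 5 pairs had the higher value in rank 1, and the log2 fold change was 0.31 with the block (edgeR adjusted p = 0.216). Without the block it was also 0.31, and -0.013 without rank 1 replicate 1.

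**Figure D5:**
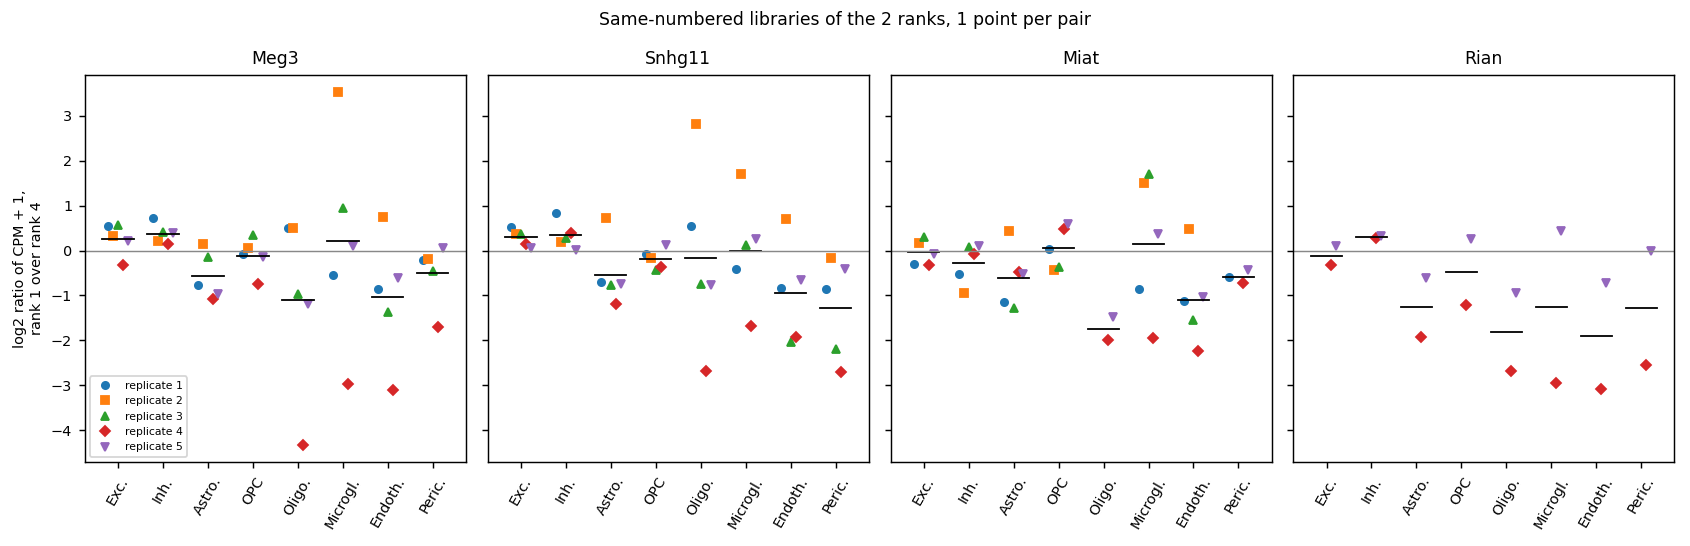
Log2 ratio of rank 1 over rank 4 in each same-numbered pair of libraries for Meg3, Snhg11, Miat and Rian in 8 classes, with a black line at the mean of the pairs. Snhg11 pairs are all above 0 in excitatory neurons (mean 0.30) and 4 of 5 are below 0 in astrocytes (mean -0.54).

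Genes that share a domain, a nuclear body or a binding partner with the members were read from lists, by their counts of calls. Of 8 protein-coding neighbours of the imprinted domain, 4 were abundant enough for the comparison of neurons with glia and vessels. Begain (log2 1.52, SD 0.91), a synaptic scaffold-associated protein, and Wars (0.57, SD 0.29) were higher in neurons in 10 of 10 libraries, and Degs2 (-3.19, SD 1.45) and Yy1 (-0.24, SD 0.15) were lower. Dlk1 and Rtl1, on the paternal side of the domain, had at most 5.85 and 2.92 CPM in any whole library. Of 9 paraspeckle proteins, 3 were higher and 3 lower in neurons (median log2 0.03, beside 0.14 for all genes tested), with Hnrnpk at -0.51 (SD 0.21, 0 of 10 libraries higher) and Tardbp at 0.43 (SD 0.23, 10 of 10). Among these 9, the mean difference was at most 0.51 on the log2 scale in size, beside -4.90 for Neat1. Of 8 nuclear speckle proteins, 2 were higher and 4 lower (median log2 -0.14). Among all genes tested 43.1% were higher and 32.8% lower, and with lists of this size these counts are not read as apart from those shares.

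Of 5 listed binding partners of Miat and Rmst, 1 was higher and 3 were lower in neurons (median log2 -0.70). Celf3, a splicing factor that binds Miat, was higher in neurons in 10 of 10 libraries (log2 2.66, SD 0.79), and Qk, another such factor and a glial regulator of myelin RNAs, was lower in 10 of 10 (-2.72, SD 0.25). Sox2, which binds Rmst, was lower in neurons in 10 of 10 (-1.33, SD 0.48), with 439.6 CPM in astrocytes and 5.51 CPM in excitatory neurons. Hnrnpa2b1 was lower as well (-0.70, SD 0.21, 0 of 10 libraries higher), and Sf1 did not pass (0.08, SD 0.30, 5 of 10 libraries higher, exact adjusted p = 0.490). Of 8 other long noncoding RNAs tested of 15, 6 were higher and 2 lower in neurons (median log2 1.95). Those named were Dlx6os1 (4.93, SD 0.79), transcribed beside the interneuron factor Dlx6, with 188 CPM in inhibitory and 1.29 CPM in excitatory neurons, and Pantr1 (-1.44, SD 0.40), with 781 CPM in astrocytes. Of 5 other small nucleolar RNA host genes tested of 14, 1 was higher and 2 lower (median log2 -0.05), with Snhg20 at 0.74 (SD 0.39) and Snhg18 at -3.52 (SD 1.40).

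Against mitochondrial share, 5 of 8 other long noncoding RNAs were higher and 1 lower in the high group (median log2 1.27, beside 0.07 for all genes), among them Cdr1os (1.48, SD 0.36) and Kcnq1ot1 (1.25, SD 0.49), each in 10 of 10 libraries. Cdr1os and Kcnq1ot1 were also higher in neurons than in glia and vessels (log2 2.46 and 1.27). The excitatory-neuron markers were higher in the same high group (mean log2 1.24), and their part in these values was not tested. Of 9 paraspeckle proteins 4 were higher and 1 lower, and of 8 nuclear speckle proteins 1 was higher and 2 lower, beside 30.9% of all genes higher and 22.7% lower. Of 4 other small nucleolar RNA host genes none was called by the exact sign-flip test, and none had fewer than 5 libraries higher in the high group. No listed gene differed between ranks in excitatory neurons or astrocytes without the block. With the block, 1 of 5 binding partners tested in astrocytes, Celf3 (-1.09, edgeR adjusted p = 0.0335), and 2 of 8 other long noncoding RNAs, among them Cdr1os (-0.88, edgeR adjusted p = 0.00834), were lower in rank 1, beside 1.06% of all genes there. Both named genes are high in neurons (log2 2.66 and 2.46 over glia and vessels), and the excitatory-neuron markers were lower in rank 1 in 5 of 5 of the same astrocyte pairs (mean log2 -0.48). The part of neuron RNA in these calls was not tested.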

How the data were processed

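The deposited files are 10 matrices of whole-number UMI counts per gene and cell barcode, 1 per library. Per the submitters' processing notes the authors used Cell Ranger 4.0.0 and mm10. The headers name software 3.1.0 for the first 3 replicates of each rank and 4.0.0 for the other 2, and the gene lists of the versions share 30406 genes, per the file headers. No per-sample column was left out (0).

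Barcodes with at least 500 genes and at most 15% mitochondrial UMIs were kept after a doublet score marked 0.8% per 1000 barcodes (4633 called). Cells were clustered by Leiden at resolution 1 on 2000 variable genes, 30 principal components and 15 neighbours. Sums needed at least 20 cells per library and class. Ranks were compared with edgeR 4.0.16 (quasi-likelihood test) in R 4.3.3, with the gene list as covariate; DESeq2 1.42.0 was an alternative. Within-library contrasts used exact two-sided sign-flip tests on log2(CPM + 1), with a threshold of 0.05. Both were tested on simulated data. Contrasts of neurons with other cells and of mitochondrial groups were adjusted over all genes with a mean of at least 10 CPM. This was done in place of the 8 members first planned. Contrasts of neighbouring classes were adjusted only over the neighbouring pairs of the 8 members. Those pairs were set by the order of class means in the same data. The named genes were the members, their class and subclass of smallest unadjusted rank p, 3 most similar genes each, and up to 2 genes per list and rank comparison; list genes named for other contrasts were chosen after their values were seen. Of the planned names, 1 marker of excitatory neurons, left out of the marker sums, and 1 similar gene are not reported here. The members and lists were chosen with earlier results of these data known. Same-numbered libraries of the ranks deviated together (r = 0.683, 0.748, 0.682, 0.785 and 0.875), values that also carry the gene-list difference. With the gene list removed r was 0.742, 0.481, 0.234, 0.175 and 0.175. The last 2 are 1 value, since 2 libraries per rank and gene list deviate by mirror amounts. Each r was over 0.1, so the numbers were taken to pair the samples. The pairing of replicates 4 and 5, which alone gave the Rian calls, rests on that 1 value once the gene list is removed. For replicate 3 the closest library of the other rank had another number. Python 3.11.15, leidenalg 0.10.2 and scipy 1.17.1 were used. Percentages and counts per cell carry counting error only.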

Additional observations from a re-analysis of the deposited data

Results flagged for a closer look

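In groups of 5 libraries of 1 rank, 94 groups were checked for a library far from the other 4, and 8 held one, where chance alone gives about 1 in 20. Rank 1 replicate 1 was the highest of its rank for Malat1 in excitatory neurons (103110.0 CPM, others 45041 to 53299) and in inhibitory neurons (119549 CPM, others 41578 to 50976). The same library was highest for Meg3 in excitatory neurons (20692.3 CPM, others 7953 to 10226) and in inhibitory neurons (31848.9 CPM, others 11555 to 12771). Rank 4 replicate 1 was the highest of its rank in inhibitory neurons for Malat1 (86220.1 CPM, others 42232 to 51131) and for Meg3 (19387.3 CPM, others 9089 to 10943). The log2 ratio of Meg3 between barcodes of high and low mitochondrial share was lowest in rank 1 replicate 1 (0.654856, or 0.655, others 1.72 to 1.97). Neat1 in astrocytes was highest in rank 4 replicate 4 (302.517 CPM, others 130 to 161).

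Snhg11 was lower in rank 1 in every pair of pericytes (mean log2 -1.27) and higher in every pair of excitatory (0.30) and inhibitory neurons (0.34). The differences between these means, -1.57 (-1.56781) and -1.61 (-1.61276), were not tested. In pericytes Snhg11 stood at 7.46% of its excitatory level, below the excitatory-neuron markers (17.6%) in 10 of 10 libraries, so it is not read as expression of pericytes. Those markers were lower in rank 1 in 4 of 5 pericyte pairs (mean log2 -0.71).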

How the results depend on the processing

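The count of members called between ranks in classes was 0 without the block and 8 with the replicate block. It was 1 with at most 5% mitochondrial UMIs (Meg3 in oligodendrocytes, -1.39), 1 with at least 1000 genes per cell (Rian there, -1.93) and 1 in replicates 4 and 5 only (Meg3 there, -2.11). Leaving out single libraries gave 0 to 3 (3 without rank 1 replicate 5, all Rian from 1 against 2 libraries), and leaving out single pairs with the block gave 3 to 7. The Rian calls with the block come from pairs 4 and 5, so leaving out pair 1, 2 or 3 cannot change them. Without pair 1 the call besides Rian was Meg3 in oligodendrocytes (-1.83, edgeR adjusted p = 0.000412). The other settings gave 0, and subclass counts stayed at 0. Some alternative turned the sign in 27 of 49 member and class tests and in 52 of 72 member and subclass tests, never past the threshold. Among those of smallest p or called with the block these were Meg3 in pericytes (0.26 at 5% mitochondrial), Mirg in unnamed inhibitory cluster 1 (0.035 at 10%), Neat1 in microglia (-0.025 with 1000 genes), Rmst in astrocytes (-0.056 to 0.26 without single libraries, below 0 without rank 1 replicate 1, and -0.039 to 0.23 with the block without single pairs, below 0 without pair 1) and Snhg11 in astrocytes (0.035 at 5%, and -1.33 to 0.052 without single libraries, above 0 without rank 4 replicate 1). With mitochondrial groups above 10% and at most 2.5%, Malat1 (0.52), Neat1 (0.041) and Rmst (0.066) turned; with at least 20 barcodes per side Malat1 (-0.094) and Neat1 (-0.085) kept their sign and lost the call. Snhg11 lost its call within 1000 to 3000 UMIs (1.62), and Rmst passed there (-1.47), with all UMIs as denominator (-0.85) and without rank 4 replicate 1 (-0.72). In the order of classes, 6 neighbouring pairs were called with at least 1000 genes in place of 10, and 7 to 9 without single libraries. The cause was not tested in any of these. No share over all genes was computed for neighbouring classes, so counts of neighbouring pairs are not read as particular to the members. Leaving out excitatory cluster 9, chosen after seeing the data, gave 7 calls for neurons against other cells and 10 for neighbouring classes. Leaving out inhibitory cluster 1 as well, also chosen after seeing the data, gave 7 and 9, with inhibitory over excitatory neurons lost for Meg3 (0.29). All 7 members called between neurons and other cells stayed past the threshold in every setting run except Malat1, which was lost at 5% mitochondrial, with 1000 genes and without any of 7 single libraries. Sums of under 30 UMIs in glia limit Mirg, Rmst and Miat.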
